A study of Mus musculus with 4 samples.

Results

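Kit ligand, its receptor Kit and 3 transcription factors of spermatogonial differentiation, Sohlh1, Sohlh2 and Neurog3, were read in polyadenylated RNA of whole testes from mice at postnatal day 3. These 5 genes were taken by symbol from a count table of 22609 genes, and all 5 were listed in it. In the mutant group (2 libraries) the thyroid hormone receptor alpha 1 was dominant negative, a receptor form that blocks the normal one. The other group (2 libraries) was labelled wild type for the same receptor. The mice came from AmhCre animals mated with heterozygous carriers of the TRαAMI allele, on a mostly C57BL/6J background. AmhCre drives Cre recombinase from the Amh promoter in Sertoli cells, and the series' title places the mutation in those cells alone. Whether the wild-type animals carried Cre or an unrecombined allele, and how many animals went into each library, was not given in the sources used here. The series set out to find the direct and indirect effects of the receptor mutation on testis genes.

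Sertoli cells line the seminiferous tubule and make Kit ligand, the protein of Kitl, in a membrane-bound and a soluble form. Kit, the receptor tyrosine kinase that binds it, is carried by differentiating spermatogonia, and outside the germ line by Leydig cells, mast cells and melanocytes. Sohlh1 and Sohlh2 are basic helix-loop-helix factors of germ cells that bind DNA at E-boxes, and in the mouse both are needed for spermatogonia to differentiate and to express Kit. Neurog3 is a basic helix-loop-helix factor of undifferentiated spermatogonia that are about to differentiate.

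Where a pair of values is given for a group, replicate 1 stands before replicate 2. The 4 libraries held between 10230512 and 15636832 counts in genes. Thra, which carries the engineered allele, was read at 237 and 194 CPM (reads of a gene relative to all gene reads of its library, scaled between libraries) in mutant testes, and 398 and 257 CPM in wild-type testes, and the test did not call it (log2 fold change -0.60, adjusted p = 0.0965). Thra was called lower with the replicate number as a block (-0.57, adjusted p = 0.028), and likewise when mutant replicate 1 (-0.75, adjusted p = 0.00558) or the second wild-type library (-0.89, adjusted p = 0.0463) was left out. Gene counts do not separate the alleles, so Thra does not check the labels. Defining transcripts of the testis were present in every library, with 19 of 20 Sertoli markers matched by symbol and all 19 tested. Skeletal muscle transcripts stood apart in the mutant libraries, at 2754 and 726 summed CPM in mutant testes, and 25.5 and 23.0 in wild-type testes (12 genes). Of these, 10 were called higher, a count of 0 without wild-type replicate 1 and of 1 without wild-type replicate 2, and of 1 under limma voom and under the robust edgeR fit with all 4 libraries. Germ cell transcripts were the most abundant in wild-type replicate 1, as given below.

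Sohlh1 fell 3.20-fold and Sohlh2 2.75-fold in mutant testes, while Kitl and Kit were not called. Neurog3 was too rare to test. A gene was called when its adjusted p lay below 0.05 in edgeR's quasi-likelihood test over 14788 genes. In that test 5.67% of genes were called, and 2.52% were called lower in mutant testes. Of the 4 members tested, 2 were called lower and none higher. Both mutant libraries lay below both wild-type libraries in 3 of the 4 tested members, Kitl being the exception, and so did 29.0% of all tested genes. In whole testes, fewer cells of a type and less RNA per cell cannot be told apart. Separate animals behind the libraries are not named in the labels, and every p-value is thus limited to the spread among these 4 samples, which may be technical.

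**Figure D1:**
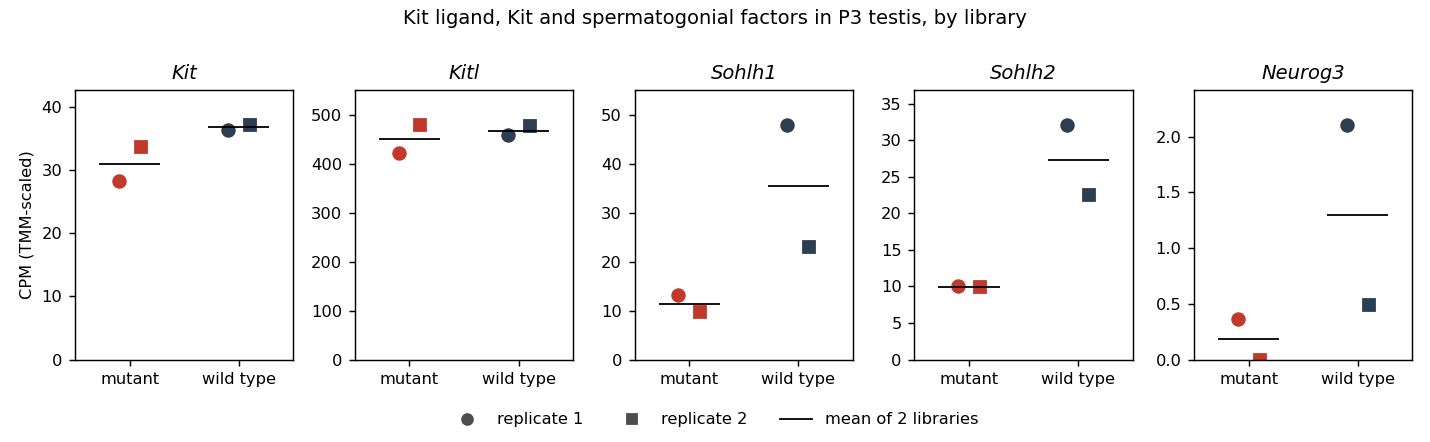
CPM of the 5 members in each library, mutant on the left and wild type on the right, with a linear axis from 0 for each gene, circles for replicate 1, squares for replicate 2 and lines for group means. Sohlh1 and Sohlh2 sit lower in both mutant libraries than in both wild-type libraries, while Kitl overlaps between the groups.

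Kitl, the ligand, was by far the most abundant member and did not differ between the groups beyond its error. It was read at 423 and 480 CPM in mutant testes, and 459 and 479 CPM in wild-type testes. The lowest and the highest of these values both came from mutant libraries, so the groups overlapped. The log2 fold change, mutant over wild type, was -0.05 ± 0.09 (SE; adjusted p = 0.766), with a 95% interval from -0.27 to 0.16. The sign turned without mutant replicate 1, at 0.03 (adjusted p = 0.941). With 12172 counts in mutant and 10998 in wild-type libraries, counting error is small and the spread between libraries sets the interval. Kitl lies on chromosome 10 (99478264 to 99563047, plus strand, mm9). GENCODE lists 4 protein-coding transcripts for it, and counts per gene do not separate the membrane-bound from the soluble form.

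Enzymes that release the soluble form of Kit ligand from the membrane, or cut it, were read beside it. Of 6 such genes, 2 rose and none fell, with a median log2 fold change of 0.50 against -0.01 over all tested genes. Mmp9, the gelatinase that frees Kit ligand in mouse bone marrow, was at 19.1 and 11.9 CPM in mutant testes, and 4.73 and 4.51 CPM in wild-type testes (log2 fold change 1.72 ± 0.29, adjusted p = 0.0211). Leaving out wild-type replicate 1 ended its call (adjusted p = 0.12), as did leaving out the other wild-type library (adjusted p = 0.0942), and 1 gene of the list was then called. Cma1, mast cell chymase, rose by 2.03 ± 0.19 on the same scale (adjusted p = 0.00513) and was called whichever library was left out. It is a mast cell gene as well and counts in both lists. Adam17, a sheddase of many surface proteins, was at 0.02 (adjusted p = 0.91), and at -0.06 without mutant replicate 2. Adam33, which cuts Kit ligand in mouse cells, was at 0.73 (adjusted p = 0.0718).

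The Sertoli cell markers gave a mixed picture around Kitl. Of 19 tested, 1 rose and 3 fell, with a median log2 fold change of 0.05. Cldn11, the claudin of the Sertoli tight junction, fell 2.33-fold (adjusted p = 0.00237), Amhr2, a receptor of anti-Müllerian hormone, 1.72-fold (adjusted p = 0.00579) and Aard, an abundant Sertoli transcript, 2.02-fold (adjusted p = 0.0119). Each of the 3 was called whichever library was left out. Ptgds, a prostaglandin synthase of Sertoli cells, rose 1.69-fold (adjusted p = 0.0089), and its adjusted p was 0.0762 without wild-type replicate 1. Per count of Amh, the Sertoli hormone gene, Kitl stood at 0.60 and 0.716 counts in mutant testes, and 0.591 and 0.774 in wild-type testes. These ratios overlapped between the groups.

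Kit, the receptor, was not called. It was read at 28.2 and 33.6 CPM in mutant testes, and 36.4 and 37.2 CPM in wild-type testes. Both mutant values were lower than both wild-type values, a placing that 29.0% of tested genes share. The log2 fold change was -0.24 ± 0.13 (SE; adjusted p = 0.28), with a 95% interval from -0.54 to 0.05. It was -0.13 without mutant replicate 1 and -0.38 without mutant replicate 2, and not called either way. Kit lies on chromosome 5 (75970941 to 76052747, plus strand, mm9) and no exon of another annotated gene overlaps its exons. Kitl counts per Kit count were 14.99 and 14.28 in mutant testes, and 12.6 and 12.9 in wild-type testes. The ratio of ligand to receptor transcripts was therefore higher in both mutant libraries, and was not tested. It rests on 310 to 527 Kit counts per library, and counting error was not set against the gap.

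Proteins that carry the Kit signal into the cell showed few calls. Of 47 tested, 1 rose and none fell, with a median log2 fold change of 0.09. The gene that rose was Grb10, an adaptor that binds receptor tyrosine kinases, at 489 and 455 CPM in mutant testes, and 274 and 244 CPM in wild-type testes (1.82-fold, adjusted p = 0.00579). It was called whichever library was left out. Without mutant replicate 1 the list held 2 calls. The remaining 46, which hold the Ras, phosphoinositide 3-kinase and Stat genes of the pathway, were not called.

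Cells outside the germ line that carry Kit were read through their marker genes. Of 5 tested mast cell genes, 3 were called higher in mutant testes and none lower. Summed over the 10 mast cell genes they reached 141 and 152 CPM in mutant testes, and 46.5 and 64.7 CPM in wild-type testes. Cpa3, mast cell carboxypeptidase, was at 29.0 and 31.9 CPM in mutant testes, and 3.75 and 7.74 CPM in wild-type testes (log2 fold change 2.45 ± 0.27, adjusted p = 0.00579). Tpsb2, a tryptase, rose by 2.18 ± 0.19 (adjusted p = 0.00444). Cpa3, Tpsb2 and Cma1 were called whichever library was left out, and without mutant replicate 1 the list held 5 calls. The other two tested were not called. Mcpt4, a mast cell chymase, was at 0.97 on the log2 scale (adjusted p = 0.0977) and was called without mutant replicate 1 (adjusted p = 0.0128). Hdc, the enzyme that makes histamine and the most abundant gene of the list in wild-type testes, was at 21.7 and 19.3 CPM in mutant testes, and 21.5 and 25.2 CPM in wild-type testes, which overlap (-0.19, adjusted p = 0.483). Ms4a2, the beta chain of the mast cell IgE receptor, had 4 and 3 counts in mutant testes, and 0 in either wild-type library. Leydig cell genes summed to 1784 and 1810 CPM in mutant testes, and 1528 and 1719 CPM in wild-type testes, with none of 10 called by edgeR or limma voom, 1 by DESeq2 and 1 at an unadjusted p below 0.05. Among these Cyp11a1, the first enzyme of steroid synthesis, was at 0.31 (adjusted p = 0.0739) and Scarb1, a lipoprotein receptor, at 0.17 (adjusted p = 0.28). Of 8 melanocyte genes 3 were tested, with none called by edgeR, DESeq2 or limma voom and none at an unadjusted p below 0.05. Tyr had no count in any library, and Oca2 and Pmel, both pigment cell genes, were at -0.78 and -0.58. The part of mast and Leydig cells in the Kit value was not tested.

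**Figure D2:**
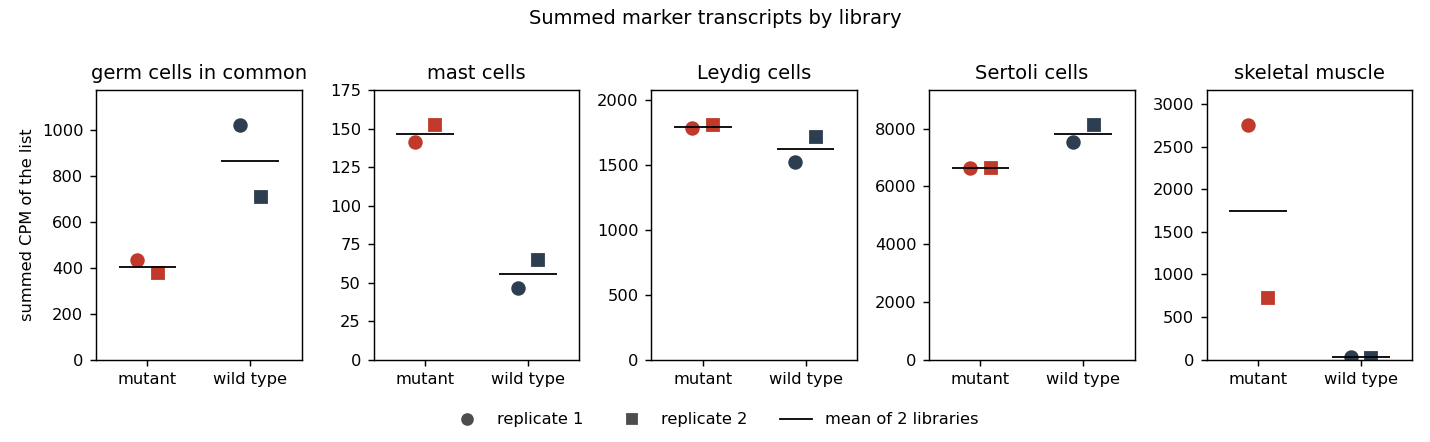
Summed CPM of 5 marker lists in each library, mutant on the left and wild type on the right, each panel with its own linear axis from 0. Germ cell transcripts reach 434 and 376 CPM in the mutant libraries against 1023 and 709 CPM in the wild-type libraries, while mast cell transcripts reach 141 and 152 CPM against 46.5 and 64.7 CPM.

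Sohlh1 had the largest fall among the tested members. It was read at 13.1 and 9.64 CPM in mutant testes, and 47.9 and 22.9 CPM in wild-type testes. The groups did not overlap, and the wild-type libraries differed more from each other than the mutant libraries did. The log2 fold change was -1.68 ± 0.33 (SE; adjusted p = 0.0302), a 3.20-fold fall with a 95% interval from -2.44 to -0.92 on the log2 scale. Of all tested genes, 0.656% had a lower fold change. Wild-type replicate 1 held the highest level, and without that library the value was -1.04 and not called (adjusted p = 0.115). DESeq2 (adjusted p = 0.0505), limma voom (adjusted p = 0.0543) and a robust edgeR fit (adjusted p = 0.107) did not call it. Sohlh1 lies on chromosome 2 (25698515 to 25702768, minus strand, mm9).

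Sohlh2 fell as well and varied less. It was read at 10.01 and 9.96 CPM in mutant testes, and 32.1 and 22.4 CPM in wild-type testes. Both mutant libraries held nearly the same level, and both were lower than either wild-type library. The log2 fold change was -1.46 ± 0.20 (SE; adjusted p = 0.0119), a 2.75-fold fall with a 95% interval from -1.93 to -0.99 on the log2 scale. DESeq2 and limma voom called it too (adjusted p = 1.73e-06 and 0.0205). It was -1.17 and not called without wild-type replicate 1 (adjusted p = 0.0762). Sohlh2 lies on chromosome 3 (54985950 to 55013879, plus strand, mm9). Sohlh1 and Sohlh2 counts stayed near each other, with 1.31 and 0.968 Sohlh1 counts per Sohlh2 count in mutant testes, and 1.49 and 1.02 in wild-type testes.

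Since the Sohlh proteins bind E-boxes (CANNTG, on both strands), the start regions of Sohlh1, Sohlh2 and Kit are shown with each E-box in capitals. Each holds the 250 bases before and 50 after a RefSeq gene start (GRCm38.p6 table) and occurs once, letter for letter, in mm9, at chr2:25702719-25703018 (minus strand), chr3:54985716-54986015 (plus strand) and chr5:75970762-75971061 (plus strand). All are written 5′ to 3′.
Sohlh1: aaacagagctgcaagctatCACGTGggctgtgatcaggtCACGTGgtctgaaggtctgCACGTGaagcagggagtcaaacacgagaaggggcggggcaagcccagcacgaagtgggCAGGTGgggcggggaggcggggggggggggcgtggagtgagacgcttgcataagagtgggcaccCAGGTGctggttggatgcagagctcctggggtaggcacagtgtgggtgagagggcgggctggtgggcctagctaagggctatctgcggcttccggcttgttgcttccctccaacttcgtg
Sohlh2: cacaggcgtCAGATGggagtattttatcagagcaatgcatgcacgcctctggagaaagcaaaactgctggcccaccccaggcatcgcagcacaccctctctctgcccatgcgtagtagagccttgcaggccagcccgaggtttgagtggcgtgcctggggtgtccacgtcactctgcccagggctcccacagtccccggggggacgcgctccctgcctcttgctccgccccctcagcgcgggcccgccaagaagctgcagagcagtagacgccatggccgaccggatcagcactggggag
Kit: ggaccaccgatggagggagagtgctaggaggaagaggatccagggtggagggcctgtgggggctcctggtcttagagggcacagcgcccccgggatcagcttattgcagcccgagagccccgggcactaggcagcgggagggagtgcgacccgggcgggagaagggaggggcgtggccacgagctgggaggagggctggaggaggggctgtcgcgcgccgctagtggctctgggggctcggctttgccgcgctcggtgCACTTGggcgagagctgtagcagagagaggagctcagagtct

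The Sohlh1 window held 5 E-boxes, against 1 each for Sohlh2 and Kit. Among 32851 RefSeq start windows of this length, 72.3% held at least 1 E-box and 2.10% at least 5. In Sohlh1, 3 of the 5 were the palindrome CACGTG, at positions -231, -211 and -192 from the start, and 0.0883% of windows held that many. The other two read CAGGTG, at -134 and -70. The letters AGGTCA, a core motif of nuclear receptors, occurred once in the Sohlh1 window, at -215, where it overlaps the second CACGTG, and in 16.3% of all windows on either strand. It was not found in the windows of Kit, Kitl, Sohlh2 or Neurog3. In Kit, whose first of 2 RefSeq starts is shown, the E-box read CACTTG and began at position 9 after the start. Kitl and Neurog3 held 1 E-box each. These letters are matches in a short window and show no binding.

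Neurog3 was rare in all libraries and did not pass the filter on low counts. It had 4 and 0 counts in mutant testes, and 28 and 5 counts in wild-type testes. Most of its reads came from wild-type replicate 1. As CPM these are 0.364 and 0 in mutant testes, where 0 counts allow up to 0.192 CPM by the limit of 3 counts, or 0.2355 CPM by the upper end of the exact 95% interval, against 2.10 and 0.490 in wild-type testes. The summed counts were 4 in mutant and 33 in wild-type libraries, a ratio of wild type over mutant of 9.35 (exact 95% interval 3.33 to 36.3, counting error only). The exact 95% intervals of mutant replicate 1 (0.0992 to 0.932 CPM) and wild-type replicate 2 (0.159 to 1.14 CPM) overlap, so these 2 libraries could not be distinguished at this depth. Neurog3 lies on chromosome 10 (61595838 to 61597511, plus strand, mm9) and its exons overlap exons of 2010107G23Rik, a gene on the other strand. No source used here gives the strand setting of the counting, and reads from the overlap may have been set apart as ambiguous or mixed.

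Genes known from other stages of the same lineage moved with Sohlh1 and Sohlh2 in part. Of 17 tested genes shared by most germ cells, 9 fell and none rose, with a median log2 fold change of -0.86 against -0.01 over all tested genes. Dazl, an RNA-binding protein, fell 2.54-fold (adjusted p = 0.00701) and Uchl1, a ubiquitin hydrolase, by 1.46 on the log2 scale (adjusted p = 0.0099). Mael and Rnf17, both of the piRNA pathway, fell by 1.14 and 1.16 (adjusted p = 0.0222 and 0.0226). Of 25 tested genes of undifferentiated spermatogonia, 6 fell and 1 rose, with a median of -0.45. The gene that rose was T, the brachyury factor, at 5.005 and 3.58 CPM in mutant testes, and 1.05 and 0.98 CPM in wild-type testes (log2 fold change 2.03 ± 0.38, adjusted p = 0.0279). Sox3, which codes for an HMG-box factor of early spermatogonia, was at 1.46 and 0.447 CPM in mutant testes, and 20.5 and 6.76 CPM in wild-type testes (log2 fold change -4.00 ± 0.69, adjusted p = 0.0222). It was not called by limma voom (adjusted p = 0.0545), by the robust edgeR fit (adjusted p = 0.085) or without wild-type replicate 1 (adjusted p = 0.0962). Lin28a, an RNA-binding protein, fell by 1.29 (adjusted p = 0.00996). Nanos3 was called lower at -2.14 (adjusted p = 0.0194) and Nanos2 at -3.53 (adjusted p = 0.0172), both Nanos genes coding for RNA-binding regulators. Of 17 tested genes tied to differentiation, 4 fell and none rose, with a median of -0.19. Some of them, such as Ccnd2 and Rara, may also be read from other testis cells, and that part was not tested.

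The 4 differentiation genes that fell were Stra8, Dmrtb1, Sycp3 and Dmrt1. Stra8, which retinoic acid induces in differentiating spermatogonia, was at 1.46 and 2.23 CPM in mutant testes, and 31.1 and 13.2 CPM in wild-type testes (log2 fold change -3.56 ± 0.48, adjusted p = 0.0104). Dmrtb1, a factor of the later switch to meiosis, had 5 and 5 counts in mutant testes, and 51 and 24 counts in wild-type testes (adjusted p = 0.0212). Sycp3, of the meiotic chromosome axis, fell by 1.27 (adjusted p = 0.0173). Dmrt1, of germ and Sertoli cells, fell by 0.90 (adjusted p = 0.00579). Of 11 tested partners and relatives of the Sohlh factors, 1 fell, with a median of -0.04: Tcfl5, a basic helix-loop-helix factor of spermatogenic cells, by 1.06 (adjusted p = 0.0226). The E proteins, the usual dimer partners of this family, were not called, with Tcf3 at 0.06, Tcf4 at 0.25 and Tcf12 at 0.24. Without wild-type replicate 1 the calls in these lists came to 2 for genes shared by germ cells, 0 lower and 0 higher for undifferentiated spermatogonia, 2 for differentiation and 0 for the partners. Without wild-type replicate 2 they came to 8, 5 lower and 0 higher, 4 and 0. These are counts and not the same genes throughout. Dmrtb1 was not called without wild-type replicate 1 (adjusted p = 0.153) or 2 (adjusted p = 0.0747), nor was Nanos2 (adjusted p = 0.124 and 0.0776) or T (adjusted p = 0.14 and 0.12). Lin28a, Nanos3, Sycp3, Mael and Rnf17 lost their calls without wild-type replicate 1 alone, and Mael also in the robust edgeR fit (adjusted p = 0.0546).

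**Figure D3:**
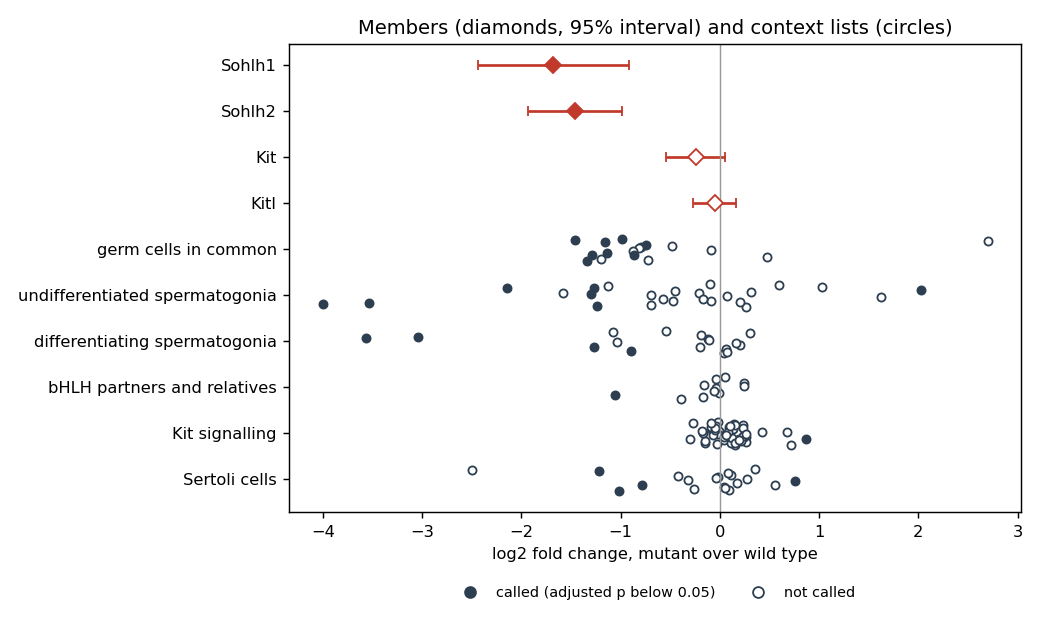
Log2 fold change, mutant over wild type, of the 4 tested members (diamonds with 95% intervals) and of the tested genes of 6 lists (circles), filled where called. Sohlh1 at -1.68 lies below every tested gene of the list shared by germ cells, and Sohlh2 at -1.46 is level with its lowest, Uchl1. Kit at -0.24 and Kitl at -0.05 lie near 0, where most Kit signalling genes are.

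Among the 59 distinct tested genes of the 3 germ cell lists, 5 had a lower fold change than Sohlh1, 6 a lower one than Sohlh2 and 34 a lower one than Kit. These lists also hold genes that other testis cells may express, such as Ccnd2, at a wild-type mean of 665 CPM. The part of such cells in these ranks was not tested. Counts relative to Ddx4, an RNA helicase of germ cells that itself fell 1.74-fold (adjusted p = 0.0304), show how each member stood to the germ cell transcripts of its own library. Leaving out either wild-type library ended the call of Ddx4, at adjusted p = 0.14 for replicate 1 and 0.0582 for replicate 2. Sohlh1 had 206 and 195 counts per 1000 Ddx4 counts in mutant testes, and 434 and 271 in wild-type testes. Sohlh2 had 157 and 201 in mutant testes, and 290 and 265 in wild-type testes. Both stayed lower in each mutant library by this measure. Kit had 444 and 679 per 1000 Ddx4 counts in mutant testes, and 330 and 439 in wild-type testes. Kit was thus higher per Ddx4 count in both mutant libraries, although mutant replicate 1 and wild-type replicate 2 were nearly equal. So was Kitl, with 6647 and 9698 in mutant testes, and 4157 and 5652 in wild-type testes. A gene that falls less than Ddx4 is higher by this measure, in whatever cells it is read.

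For Sohlh1 the comparison depended on the germ cell gene it was set against. Per 1000 summed counts of the genes shared by germ cells, Sohlh1 had 30.2 and 25.7 in mutant testes, and 46.8 and 32.4 in wild-type testes. These did not overlap, although mutant replicate 1 and wild-type replicate 2 were close. By the same sum Sohlh2 had 23.1 and 26.5 in mutant testes, and 31.3 and 31.7 in wild-type testes. Kit was higher in both mutant libraries and Neurog3 overlapped. Per 1000 counts of Dazl, Sohlh1 had 117 and 89.8 in mutant testes, and 146 and 101 in wild-type testes, which overlap. Sohlh2 had 89.2 and 92.8 in mutant testes, and 97.8 and 98.5 in wild-type testes, a small difference that did not overlap. The mutant values rest on 110 and 156 Sohlh2 counts, and counting error was not set against the difference. Dazl is also among the genes nearest to Sohlh2 in pattern, as given below. Kit had 251 and 313 per 1000 Dazl counts in mutant testes, and 111 and 163 in wild-type testes. Stra8 was lower against either gene, with 13.0 and 20.8 per 1000 Dazl counts in mutant testes, and 94.8 and 58.1 in wild-type testes. These ratios were not tested.

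**Figure D4:**
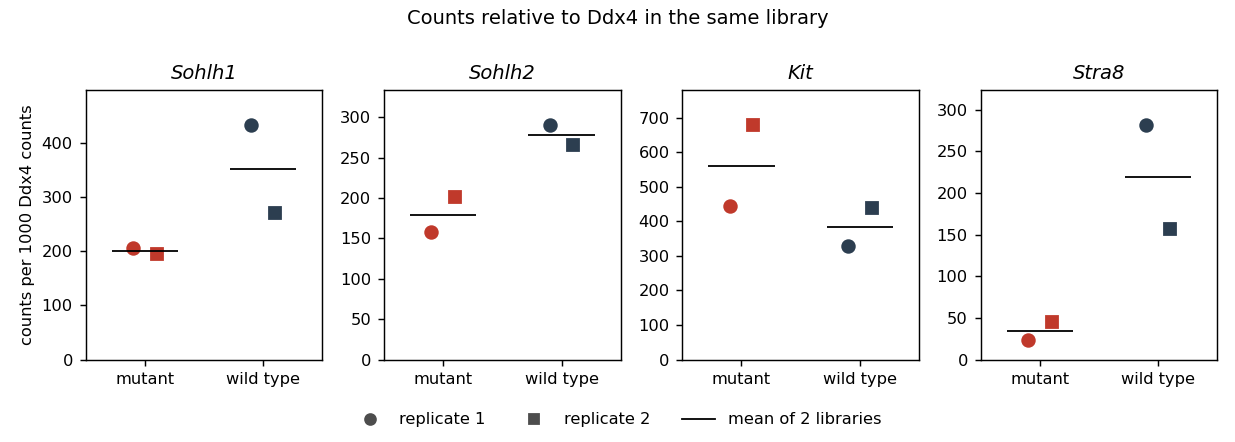
Counts of Sohlh1, Sohlh2, Kit and Stra8 per 1000 Ddx4 counts in the same library, mutant on the left and wild type on the right, on linear axes from 0. Sohlh1, Sohlh2 and Stra8 are lower in both mutant libraries, and Kit is higher in both, at 444 and 679 against 330 and 439.

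Per length of exon the order of the members changed between the groups. Levels here are CPM per kilobase of annotated exon. In mutant testes Kitl stood at 77.3 ± 6.97, Sohlh1 at 8.82 ± 1.90, Kit at 5.30 ± 0.66, Sohlh2 at 4.22 ± 0.02 and Neurog3 at 0.118 ± 0.167 (SD, n = 2). In wild-type testes the order was Kitl at 80.3 ± 2.35, Sohlh1 at 27.5 ± 13.7, Sohlh2 at 11.5 ± 2.88, Kit at 6.31 ± 0.09 and Neurog3 at 0.842 ± 0.741 (SD, n = 2). Kit thus ranked above Sohlh2 in mutant libraries and below it in wild-type libraries. The gap was narrow in mutant replicate 1, at 4.84 for Kit and 4.23 for Sohlh2, from 310 and 110 counts. Counting error was not set against that gap. The order also rests on the exon lengths used, 5831 bases for Kit and 2364 for Sohlh2. In neither group did the libraries of these 2 genes overlap. The wild-type levels of Sohlh1 and Sohlh2 did not overlap either, at 37.2 and 17.8 for Sohlh1 and 13.6 and 9.497 for Sohlh2 in replicates 1 and 2. Their gap was close to the SD of Sohlh1, and no difference between genes was tested.

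The tested genes whose pattern over the 4 libraries was most like each member were taken by the smallest root mean square difference of centred log2 CPM. For Sohlh2 they were Rpl39l (0.04), Tex11 (0.05) and Dazl (0.05), all called lower. For Sohlh1 they were Xlr4a (0.08), Nlrp4c (0.11) and Rspo4 (0.13), of which Nlrp4c was called. Xlr4a was called in the robust edgeR fit, with the replicate block and without mutant replicate 1 (adjusted p = 0.0474, 0.0406 and 0.0146), and Rspo4 without mutant replicate 1 (adjusted p = 0.026). For Kit they were Rps23 (0.01), Nol7 (0.01) and Abca1 (0.02), and for Kitl Ppox (0.01), D17Wsu104e (0.01) and Nus1 (0.01), none of them called. With 4 libraries many genes can share a pattern, and counts of Rpl39l, Xlr4a and Rps23 may be split with near-identical copies. Tex11 and Nlrp4c lost their calls without wild-type replicate 1 (adjusted p = 0.0872 and 0.0812).

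The calls of Sohlh1 and Sohlh2 were lost when wild-type replicate 1 was left out, and their direction held whichever library was left out. Sohlh1 ranged from -2.10 to -1.04 and Sohlh2 from -1.69 to -1.17 over the fits that each left out 1 library. Both were called without mutant replicate 1, without mutant replicate 2 and without wild-type replicate 2, where 2.17%, 3.17% and 0.575% of all genes were called lower. Neither was called without wild-type replicate 1, where 0.265% were. That library held 1023 summed CPM of genes shared by germ cells, against 709 CPM in wild-type replicate 2. The part of this difference in the calls was not tested.

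**Figure D5:**
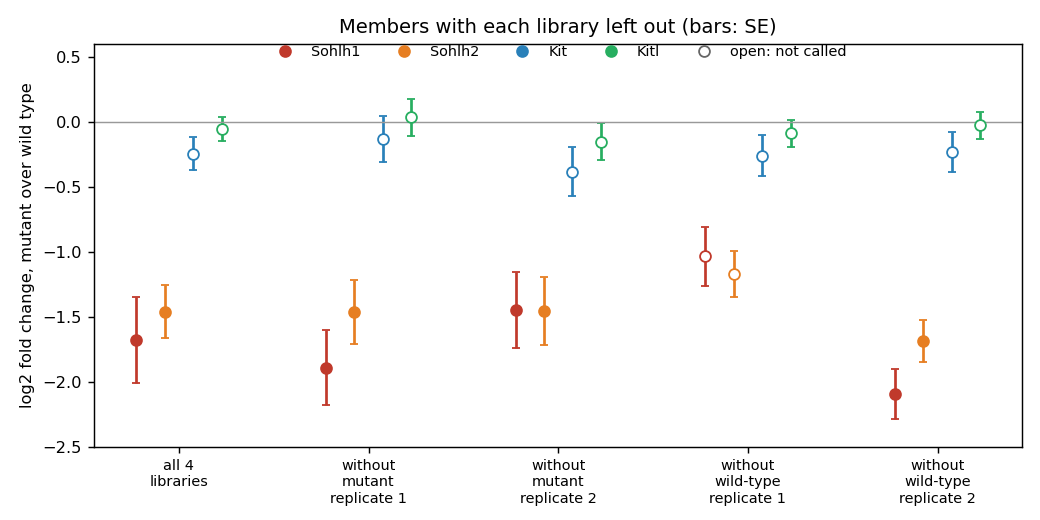
Log2 fold change, mutant over wild type, of Sohlh1, Sohlh2, Kit and Kitl with all 4 libraries and with each library left out, with bars of 1 SE and filled circles where called. Sohlh1 and Sohlh2 stay below -1 in every fit and are open, not called, only without wild-type replicate 1, at -1.04 and -1.17.

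Transcripts of the remaining cell types were read as a check on the tissue. Of 10 endothelial genes edgeR and limma voom called none, DESeq2 called 1 and 1 had an unadjusted p below 0.05, with a median log2 fold change of 0.06. Of 8 peritubular myoid genes none of the 3 tools called any and 2 had an unadjusted p below 0.05, with a median of -0.05. Of 10 stromal genes edgeR and limma voom called none, DESeq2 called 2 and 6 had an unadjusted p below 0.05, with a median of 0.32. Des, the muscle intermediate filament gene of the myoid list, was at 246 and 110 CPM in mutant testes, and 87.3 and 63.8 CPM in wild-type testes (log2 fold change 1.23, adjusted p = 0.0646). Des was called higher with the replicate block (adjusted p = 0.0116), without mutant replicate 1 (0.54, adjusted p = 0.0328) and without mutant replicate 2 (1.70, adjusted p = 1.69e-09). Of 6 tested adipocyte genes, 4 fell, a count of 1 without either wild-type library. Fabp4, the fat cell lipid carrier, was at 12.4 and 8.75 CPM in mutant testes, and 50.5 and 52.2 CPM in wild-type testes. The part of muscle and fat transcripts in the values of the members was not tested. Kitl, Kit, Sohlh1 and Sohlh2 had log2 fold changes of 0.03, -0.13, -1.89 and -1.46 without mutant replicate 1, the library with the most muscle transcripts. Mutant replicate 2, which stayed in, still held 726 summed CPM of skeletal muscle genes, against 25.5 and 23.0 in wild-type testes. That fit therefore does not remove the difference in muscle transcripts.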

How the data were processed

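Polyadenylated RNA of 4 whole-testis libraries was sequenced as single-end reads of 100 bases, per the labels. The submitters' processing notes name CASAVA 1.8.1, TopHat 1.4.0, HTSeq, DESeq2 and mm9, with no role or order. The authors deposited 1 table of counts per gene, recorded here as estimated counts since some summary lines below them are percentages. All gene values are whole, so rounding changed nothing. Lines that name no gene (no feature 13.8% to 17.3%, ambiguous 0.602% to 0.726% of reads in genes, no feature and ambiguous together) stayed out of library sizes and tests. How reads were assigned to genes (mode, strand, gene models) is not stated in those notes.

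Genotype was tested in edgeR 4.0.16 (R 4.3.3) by the quasi-likelihood F test with TMM factors, over genes passing the default expression filter (minimum count 10, minimum total 15). Tests were two-sided, with Benjamini-Hochberg adjustment across every gene tested. DESeq2 1.42.0, limma 3.58.1 voom, other factors and filters, a replicate block and each library left out were alternatives. Scripts were tested on simulated data. CPM are counts over TMM-scaled library sizes, and SDs are over 2 libraries. Exon lengths and positions are from GENCODE M1 on NCBIM37 (mm9). Fold changes and intervals are on the log2 scale, and intervals of counts cover counting error only.

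The members, the 15 context lists and the tests were chosen with earlier results of these data known. Named genes are the members, per list the called genes of lowest p, at most 4 (or, in a list with no call, the 2 of lowest p), 3 genes nearest in pattern to each member, and Ddx4, Dazl, Stra8, Acta1 and Thra where a result turned on them. Others (Adam17, Adam33, Tcf3, Tcf4, Tcf12, Ms4a2, Tyr, Mcpt4, Hdc, Amh and T) were chosen after their values were seen. Not every gene the rule takes is described.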

Additional observations from a re-analysis of the deposited data

How the results depend on the processing

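Over 14788 genes the edgeR test called 839, 466 higher and 373 lower in mutant testes. With every gene that had a count it called 501 (282 higher, 219 lower), and limma voom called 309 higher. DESeq2 called 2 Kit signalling and 2 Sertoli genes higher, against 1 each, and a minimum of 50 counts left 1 adipocyte gene called lower, against 4. Over the fits that each left out 1 library the calls ranged from 74 to 1295, those higher from 34 to 818, those lower from 40 to 477, and those among the context genes from 15 to 57. Sohlh1 was at -1.64 and not called by DESeq2 (adjusted p = 0.0505), at -1.65 by limma voom (0.0543) and at -1.68 in the robust fit (0.107), and ranged from -2.10 to -1.04 with 1 library left out. Sohlh2 ranged from -1.69 to -1.17 and Kitl from -0.151 to 0.0349. Neurog3 had no test, with a log2 ratio of summed counts of -3.23 that ranged from -3.81 to -1.71 with 1 library left out. No value could be had without mutant replicate 1, where the mutant group has 0 counts. Among the 51 other genes whose fold change was recomputed, the sign turned for Pmel (-1.20 to 0.21), Ppox (-0.144 to 0.0429), D17Wsu104e (-0.160 to 0.0130), Nus1 (-0.151 to 0.0581) and Adam17 (-0.0611 to 0.0958), none of them called. The cause of these changes was not tested. With the replicate number as a block (replicate block), Sohlh1 was at -1.58, Sohlh2 at -1.42, Kit at -0.25 and Kitl at -0.06, with no call changed among them. Among the 51 other genes recomputed, the block added the calls of Thra, Des, Xlr4a and Dnmt3l. With the block, calls among the context genes numbered 53 against 44, and those over all genes 850 against 839. The replicate numbers are not said to pair libraries, and deviations from the group means correlated at -0.03 between libraries of the same number. The 2 libraries of each group limit every test here, and Neurog3 is limited by depth.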

Other observations

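Some oocyte genes that act downstream of Sohlh1 in the mouse ovary were listed at low counts in these testes and did not pass the filter, and they were chosen after their values were seen. Figla, a basic helix-loop-helix factor of oocytes, had 1 and 2 counts in mutant testes, and 14 and 4 counts in wild-type testes. Nobox, an oocyte homeobox factor, had 2 and 3 counts in mutant testes, and 8 and 7 counts in wild-type testes. Lhx8, an oocyte LIM homeobox factor, had 3 and 1 counts in mutant testes, and 7 and 0 counts in wild-type testes. Figla and Nobox were lower in both mutant libraries, a placing that 29.0% of all tested genes share, and Lhx8 overlapped. Counting error is large at so few counts, and no difference in these genes was tested.

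Against the direction of most germ cell genes, Dnmt3l, the cofactor of germline DNA methylation, had 24 and 14 counts in mutant testes, and 3 and 2 counts in wild-type testes, and was not called (log2 fold change 2.70, adjusted p = 0.0691). It was called higher with the replicate block (adjusted p = 0.0352) and without mutant replicate 2 (adjusted p = 0.00206). Piwil4, a piRNA pathway gene, had 43 and 56 counts in mutant testes, and 35 and 28 counts in wild-type testes (adjusted p = 0.349). Both were chosen after their values were seen.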
